A study of Drosophila melanogaster with 3 samples.

Results

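The aminoacyl-tRNA synthetase genes of Drosophila melanogaster were examined for sites of CG16815, an uncharacterised protein, by chromatin immunoprecipitation and sequencing (ChIP-seq). Members were the protein-coding genes of the annotation whose symbol is the code of an amino acid, or GluPro, followed by RS, with the suffix -m for a mitochondrial enzyme. This rule gave 33 of the 13945 protein-coding genes of the chromosome arms, 18 cytoplasmic and 15 mitochondrial. Any gene whose enzyme serves both compartments was counted as cytoplasmic, since its symbol has no suffix. The genes alpha-PheRS and beta-PheRS carry a prefix and are not among them. The 3 biological replicates formed 1 group: pools of male and female whole embryos, aged 0 to 10 hours, from a transgenic line in which GFP is joined to the C terminus of CG16815, precipitated with an antibody to GFP. The tagged protein came from a stably expressed transgene, and all 3 replicates came from the same line. The embryos are whole, so cell types cannot be told apart. There was no second condition. A control library was not analysed here, and signal that does not depend on the tagged protein cannot be told apart from binding.

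Aminoacyl-tRNA synthetases join each amino acid to its transfer RNA, the step that fixes the genetic code in translation. Animals use separate enzymes for the cytoplasm and for the mitochondrial matrix. They are encoded in the nucleus, mostly by different genes, although some genes make both forms. Several of the cytoplasmic enzymes are held together with scaffold proteins in the multisynthetase complex. The genes are active in nearly all cells, as protein synthesis requires.

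A gene was called bound when the summit of a passing site lay within 500 bp of any annotated transcription start site (TSS) of that gene. Passing sites were the 3922 regions that the authors kept at their irreproducible discovery rate (IDR) threshold, and all were the strongest of the 18764 regions of the pooled list. The lists of replicates 1, 2 and 3 held 30000, 21989 and 27358 regions, background included, and the 3922 best-ranked regions of each were used to count bound genes in that replicate. Rank 1 is the highest signal of a list. Signal is the authors' own value for each region and was compared within a list only. Read counts were not analysed here, so depth is unknown.

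The share of synthetase genes with a binding site was near that of all coding genes, and 6 of the 7 bound genes encode cytoplasmic enzymes. GluProRS, SerRS, IleRS, ThrRS, AspRS and AsnRS had a passing site, as did ArgRS-m alone among the mitochondrial genes. In all, 7 of 33 genes were bound, or 21.2% (95% exact binomial interval 8.98 to 38.9), against a background of 15.9% of all coding genes, which lies inside that interval. The cytoplasmic genes were bound at 6 of 18, or 33.3% (13.3 to 59.0), and the mitochondrial genes at 1 of 15, or 6.67% (0.169 to 31.9). The intervals of both classes also include the background. These intervals cover counting error over genes only.

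The bound genes are described first at sequence level, by the strongest sites whose summit window holds no annotated gene, 3 of cytoplasmic enzymes and that of ArgRS-m. Each stretch below is 201 bp of the plus strand of dm6 centred on the passing summit, from the RefSeq copy of that build, and shows the DNA under the peak between a synthetase gene and its neighbour. Capitals mark letters of the 9 motifs described below, on either strand. The stretches are chr3R:23958428-23958628 for GluProRS, chr3L:22288419-22288619 for IleRS, chr2L:12103483-12103683 for ThrRS and chr3R:7886811-7887011 for ArgRS-m, all intergenic.
GluProRS: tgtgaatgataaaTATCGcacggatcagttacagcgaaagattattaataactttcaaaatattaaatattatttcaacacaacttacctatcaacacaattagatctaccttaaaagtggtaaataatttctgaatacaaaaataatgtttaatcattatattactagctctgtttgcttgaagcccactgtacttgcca
IleRS: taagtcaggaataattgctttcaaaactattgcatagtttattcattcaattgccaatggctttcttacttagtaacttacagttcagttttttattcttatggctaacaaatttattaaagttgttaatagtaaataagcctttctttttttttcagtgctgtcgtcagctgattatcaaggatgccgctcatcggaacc
ThrRS: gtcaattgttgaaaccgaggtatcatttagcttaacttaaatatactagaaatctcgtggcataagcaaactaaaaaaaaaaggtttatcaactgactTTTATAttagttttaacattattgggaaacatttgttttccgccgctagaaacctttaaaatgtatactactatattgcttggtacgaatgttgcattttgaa
ArgRS-m: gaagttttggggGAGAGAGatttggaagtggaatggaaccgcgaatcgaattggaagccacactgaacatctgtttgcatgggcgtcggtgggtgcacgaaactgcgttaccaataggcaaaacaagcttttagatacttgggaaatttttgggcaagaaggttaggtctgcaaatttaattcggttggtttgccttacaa
In the central 101 bp, GC content was 21.8% at GluProRS, 25.7% at IleRS, 30.7% at ThrRS and 44.6% at ArgRS-m. The median of all passing sites was 30.7%, and 90.6% of them had a lower GC content than ArgRS-m, whereas 6.88% had a lower one than GluProRS.

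GluProRS encodes the bifunctional enzyme that charges the tRNAs of both glutamate and proline, and it held the strongest site of the family. Its site (signal 602.2, 365 bp wide) ranked 352 in the final list and 356, 305 and 671 in replicates 1, 2 and 3. The ranks of replicates 1 and 2 were close to each other, and replicate 3 placed the site lower. The summit lay 137 bp upstream of the TSS of GluProRS and 123 bp upstream of that of AP-1sigma, a clathrin adaptor subunit gene on the other strand, with 260 bp between the TSSs.

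SerRS, the seryl-tRNA synthetase gene, had a site of signal 586.4 that ranked 369 in the final list and 314, 349 and 686 in the replicates. Its summit was the only one of the 7 downstream of the nearest TSS of its gene, by 27 bp, in the 5' UTR of SerRS. The nearest TSS of CG17260, on the other strand, lay 8 bp from that of SerRS, and the summit was 35 bp upstream of it. The summit was also in an intron of CG17260, in a transcript that starts elsewhere. IleRS encodes the isoleucyl enzyme of the multisynthetase complex. Its site (signal 579.3) ranked 381 in the final list and 381, 404 and 439 in the replicates, which lie close together. The summit lay 146 bp upstream of IleRS and 324 bp upstream of Hem, which encodes a subunit of the complex that controls SCAR/WAVE and actin branching.

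ThrRS, for threonine, was bound in the final list at rank 527 (signal 485.9), but not in every replicate. Replicate 2 ranked the site 503 and replicate 3 ranked it 1309, while none of the 30000 regions of replicate 1 had a summit within 500 bp of its TSSs. The summit lay 168 bp upstream of ThrRS and 298 bp upstream of Patsas on the other strand.

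AspRS, the aspartyl enzyme of the multisynthetase complex, had a site of signal 419.9 on 2R at 12879855 to 12880270 (dm6), ranked 681 in the final list and 665, 793 and 605 in the replicates. All 3 replicates placed it within 11 bp of the same summit. It did not lie at the first TSS of AspRS, at the start of the gene (12877004), but 221 bp upstream of an internal TSS at 12880284. The summit was within introns of both AspRS and Nmda1, a gene on the other strand whose own TSS lay 167 bp away, so the site could as well be given to Nmda1.

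AsnRS and ArgRS-m had the weaker sites. AsnRS, for asparagine, ranked 2325 in the final list (signal 192.6) and 4404, 2770 and 1789 in the replicates, so that it was outside the 3922 best of replicate 1. Its summit lay 137 bp upstream, between AsnRS and DCTN6-p27, a dynactin subunit gene. ArgRS-m, for mitochondrial arginine, ranked 2681 (signal 172.5) and 2302, 3500 and 3157 in the replicates, inside the 3922 best of each. Its summit lay 134 bp upstream, between ArgRS-m and CG17816. The site of ArgRS-m was the only one of the 7 whose deposited q-value was not at the limit shared by the strongest sites of the list.

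**Figure D1:**
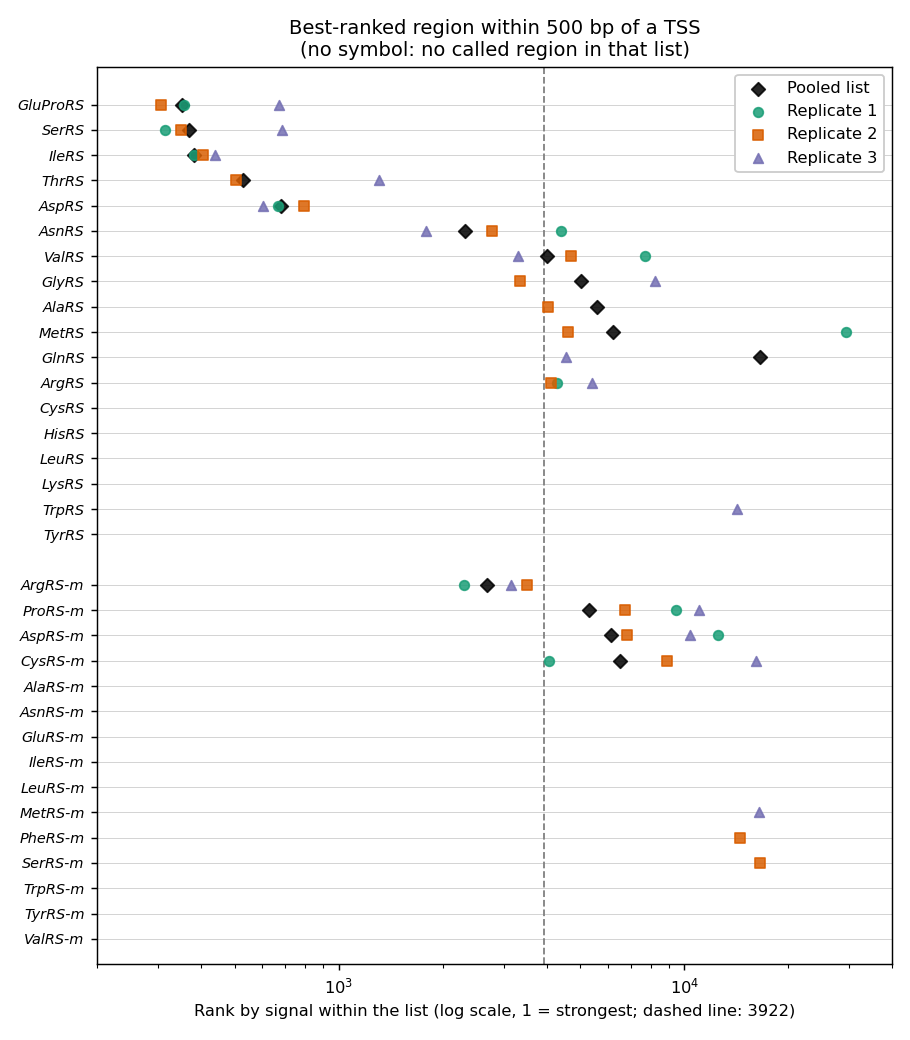
Rank by signal (log scale, 1 is the strongest) of the best-ranked region within 500 bp of a TSS of each synthetase gene, in the pooled list (diamonds) and in replicates 1 (circles), 2 (squares) and 3 (triangles); the dashed line is rank 3922. GluProRS, SerRS, IleRS and AspRS lie far to the left of the line in every list, ArgRS-m is the only mitochondrial gene left of it, and rows with no symbol had no called region.

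The bound cytoplasmic genes stood high among the passing sites. Of the 6, 5 were among the 784 strongest sites, and their median rank was 454. Over all 2220 bound coding genes the median rank was 1493.5, and 29.5% were among the 784 strongest sites. Sites were shared between neighbours, and no test was made over so few genes.

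Comparison of the replicates asked whether the same synthetase genes were bound in each. Replicate 1 had 5 of the 33 genes bound among its 3922 best regions, against 14.3% of all coding genes. Replicate 2 had 8, against 16.5%, and replicate 3 had 8, against 14.3%. The genes AspRS, GluProRS, IleRS, SerRS and ArgRS-m were bound in all 3 replicates. The sites of 6 of the 7 bound genes had a summit within 150 bp in the whole lists of all 3 replicates, background included, ThrRS being the exception. AsnRS counts here through rank 4404 in replicate 1. Passing sites were kept by the authors at a threshold of reproducibility, so recurrence in the replicates is not a trait of these genes. The shares of all passing sites and of all coding genes found in all 3 replicates were not counted. GlyRS was added in replicate 2 (rank 3352) and ValRS in replicate 3 (rank 3306). With a region required among the 3922 best of both replicate 1 and replicate 2, a condition chosen after the data were seen, 5 of the 33 genes were bound (15.2%), 4 cytoplasmic and 1 mitochondrial, against 13.0% of all coding genes.

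Comparison of the classes asked whether cytoplasmic and mitochondrial enzymes differed. Cytoplasmic genes were bound at 22.2, 38.9 and 38.9% in replicates 1, 2 and 3, a mean of 33.3% ± 9.62 (SD, n = 3), and mitochondrial genes at 6.67% in each. Every replicate thus had the higher share in the cytoplasmic class. The difference was 15.6, 32.2 and 32.2 percentage points, a mean of 26.7 ± 9.62 (SD, n = 3; two-sided exact permutation test by sign flips over the replicates, p = 0.25, the smallest that 3 replicates can give). It was reduced to 12.2 points when each summit counted only for the coding gene with the nearest TSS.

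The ranks gave the same direction. In replicates 1, 2 and 3 the cytoplasmic gene had the better-ranked region in 61.1, 71.3 and 71.5% of all pairs of a cytoplasmic and a mitochondrial gene, genes with no region being placed last and ties counted equally. The mean was 68.0% ± 5.93 (SD, n = 3; two-sided exact permutation test by sign flips against 50%, p = 0.25, again the smallest possible). With the nearest coding gene only, the percentages were 49.6, 62.6 and 67.8, so that replicate 1 no longer had the direction (mean 60%, exact permutation p = 0.5). The replicates measure the same genes, so neither test covers the choice of genes.

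**Figure D2:**
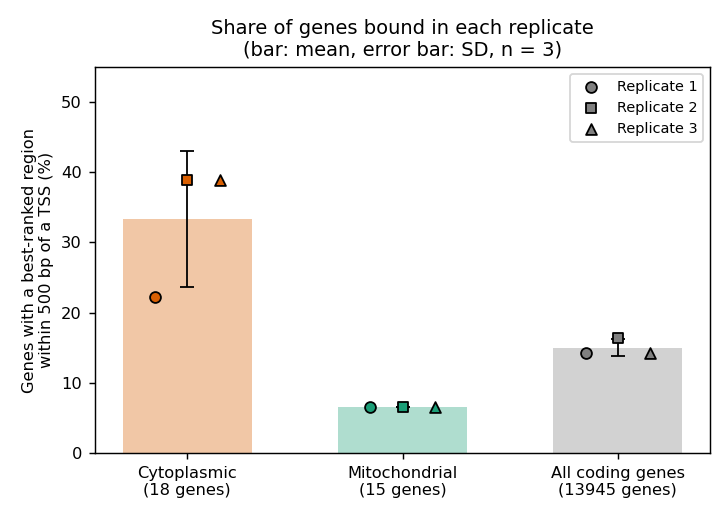
Percent of genes with a region among the 3922 best-ranked of a replicate within 500 bp of a TSS, for cytoplasmic and mitochondrial synthetase genes and all coding genes; bars are means and error bars SDs over 3 replicates. The cytoplasmic genes are at 22.2 to 38.9%, the mitochondrial genes at 6.67% in each replicate, and all coding genes at 14.3 to 16.5%.

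The enzymes for the same amino acid were compared next. For 12 amino acids there was a gene of each class with the same amino acid code. The cytoplasmic gene alone was bound for Asn, Asp, Ile and Ser, the mitochondrial gene alone for Arg, and neither for the other 7. None of these 12 had both genes bound. With only 1 of the 15 mitochondrial genes bound, against 15.9% of all coding genes, that count could be 1 at most and was not tested. GluProRS, bound, faces GluRS-m and ProRS-m, of which neither was bound, and the cytoplasmic counterparts of PheRS-m lie outside the symbol rule. Of the 5 cytoplasmic genes with no mitochondrial counterpart among the members, ThrRS was bound and GlnRS, GlyRS, HisRS and LysRS were not. Without these 5 genes the cytoplasmic share was 38.5%, and the mean difference between the classes over the replicates was 31.8 points ± 7.69 (SD, n = 3).

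By role, the 8 genes of the multisynthetase complex had 3 bound (AspRS, GluProRS and IleRS), and ArgRS, GlnRS, LeuRS, LysRS and MetRS had none. The 10 other cytoplasmic genes also had 3 (AsnRS, SerRS and ThrRS). Synthetases fall into class I and class II by the fold of their catalytic domain. Among cytoplasmic genes, class I enzymes had 1 of 9 bound (IleRS) and class II enzymes had 4 of 8 (AsnRS, AspRS, SerRS and ThrRS), while GluProRS joins an enzyme of each. Among mitochondrial genes, class I had 1 of 9 and class II had 0 of 6. All of these counts stand against 15.9% of all coding genes, and they are small and were not tested.

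The 26 genes without a passing site had, by definition, a pooled region weaker than the passing sites within 500 bp of a TSS, or none. Of the 26, 8 had a region of the pooled list within 500 bp of a TSS, so that 15 of the 33 genes had any pooled region, passing or not, against 32.2% of all coding genes. ValRS, the valyl enzyme, came nearest to passing, with a pooled region at rank 4001 (signal 122.6), just below the last passing site. The replicates ranked it 7705, 4697 and 3306. GlyRS ranked 5015 (signal 98.7), ProRS-m 5310 (93.1) and AlaRS 5599 (88.8), and the regions of these 4 genes had a deposited q under 0.05. AspRS-m (6123), MetRS (6215), CysRS-m (6524) and GlnRS (16559) had weaker regions without such a q. No region of the pooled list or of any replicate was found within 500 bp of a TSS for 13 genes, CysRS, HisRS, LeuRS, LysRS, TyrRS, AlaRS-m, AsnRS-m, GluRS-m, IleRS-m, LeuRS-m, TrpRS-m, TyrRS-m and ValRS-m. A further 4 genes, TrpRS, MetRS-m, PheRS-m and SerRS-m, had a background region in 1 replicate only, at ranks from 14192 to 16538.

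ArgRS, the cytoplasmic arginyl enzyme, differed from these. Each replicate had a region upstream of it, at 133, 180 and 257 bp and ranks 4284, 4103 and 5394. Their deposited q-values were 0.0655, 0.000366 and 0.115, so that only replicate 2 was under 0.05. The pooled list had no summit within 15645 bp of its TSS. Among the 4273 regions of replicate 2 with q under 0.05 and a summit within 150 bp in both other replicates, 12 (0.281%) likewise had no pooled summit within 500 bp.

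The distance of 500 bp decided few genes. The farthest summit inside it was that of AspRS at 221 bp, and the nearest outside was a strong site 872 bp upstream of LeuRS-m, with a signal of 608.0, rank 345 in the final list and ranks 310, 333 and 460 in the replicates. AlaRS had a site 1074 bp upstream (signal 160.6, rank 2961). The site upstream of LeuRS-m lay beyond the TSS of Dhc64C, a gene on the other strand whose TSS is 166 bp upstream of that of LeuRS-m. It was thus nearer to Dhc64C and could as well be given to that gene. With a window of 1000 bp, LeuRS-m joined the bound genes and the mitochondrial share became 13.3%.

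The bound synthetase genes shared an arrangement that the rule did not use, which was looked for after their sites had been seen. Each of the 7 was head to head with another coding gene, defined as a TSS on the opposite strand within 1000 bp upstream, as were 65.6% of the 2220 bound coding genes. The nearest such neighbour of AspRS is Lfg, 38 bp from another TSS of AspRS, whereas the site lies beside Nmda1, 54 bp from the internal TSS. Of the 33 genes, 23 had such a neighbour and 7 of these were bound, whereas 0 of the 10 without one were. Over all coding genes, 28.8% of those with a head-to-head neighbour were bound and 8.59% of those without, so the members' share of 30.4% was near that background. The arrangement moved with the class. It was found at 16 of 18 cytoplasmic genes and 7 of 15 mitochondrial genes, against 36.2% of all coding genes. Within head-to-head genes alone, 6 of 16 cytoplasmic genes (37.5%) and 1 of 7 mitochondrial genes (14.3%) were bound. The part of the arrangement in the difference between the classes was not tested.

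**Figure D3:**
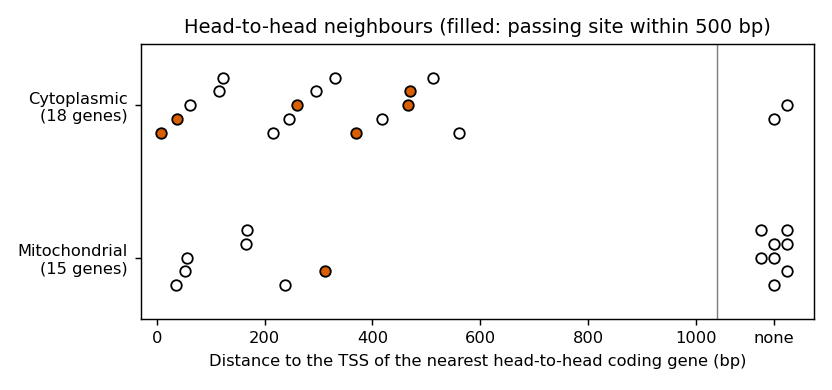
Distance in bp from a TSS of each synthetase gene to the TSS of the nearest head-to-head coding gene within 1000 bp, or none, by class; filled points are genes with a passing site within 500 bp. All 7 filled points have a neighbour (for AspRS the point is Lfg, not the gene at its site), and the group with none holds 8 of the 15 mitochondrial genes and 2 of the 18 cytoplasmic genes.

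The summits themselves lay at like distances. At GluProRS, AsnRS, ArgRS-m, IleRS and ThrRS the summit was between the TSSs of the divergent pair, from 134 to 168 bp upstream of the synthetase gene. Over the 1714 passing summits with a coding TSS within 500 bp, the median offset from the nearest TSS was -139 bp, upstream being negative, and 43.8% lay 100 to 250 bp upstream. The members' distances were thus near those of passing promoter sites in general. Of these 1714 summits, 40.3% had TSSs of 2 or more coding genes in the window, as all 7 of the synthetase sites did. That percentage is counted by summit, whereas the synthetase sites were reached through genes. A site shared by several genes is reached more often in that way, so 40.3% is not a like background. The share counted by gene was not computed. At 5 of the 7 sites the nearest TSS was that of the synthetase gene, and at GluProRS and AspRS it was that of the neighbour. The distances to gene and neighbour were close at GluProRS (137 and 123 bp) and SerRS (27 and 35 bp). Summits of single replicates lay up to 56 bp from the passing summit at GluProRS and up to 42 bp at SerRS. The nearer gene is thus not resolved at GluProRS and SerRS, and the assignment to the nearest coding gene has the same limit.

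**Figure D4:**
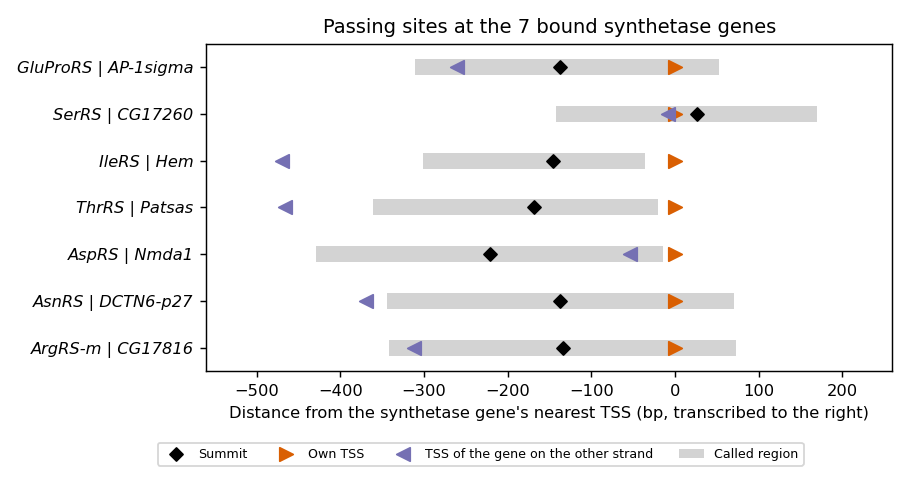
Position of the called region (grey), its summit (diamond), the nearest TSS of the synthetase gene (right-pointing triangle, at 0) and the nearest TSS of the gene on the other strand (left-pointing triangle), in bp, for the 7 bound genes in order of rank. At 5 genes the summit lies between both TSSs, 134 to 168 bp upstream of the synthetase gene; SerRS and AspRS differ.

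Motifs were searched in the 101 bp centred on each of the 7 summits, on both strands. No summit window held the DRE TATCGATA, the BEAF-32 core CGATA, the Motif 1 core GGTCACAC, the GATA site AGATAA, the homeodomain core TAATTA, the Myc E-box CACGTG, the GAGA repeat GAGAG or TGATGNAA, the amino acid response element known from mammals. The capitals of GluProRS (BEAF-32 core) and ArgRS-m (GAGA) in the sequences above lie outside that window. The TATA box letters TATAAA were in 3 of the 7 windows, those of SerRS, ThrRS and AsnRS. Over all passing sites 24.9% of windows held TATAAA, 13.2% CGATA, 11.0% TAATTA, 8.49% AGATAA, 8.41% GAGAG, 1.56% TGATGNAA, 0.943% TATCGATA, 0.688% CACGTG and 0.459% GGTCACAC. A match or its absence in 7 windows is a description only.

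Other genes that work with the synthetases were counted in the same way, against the same background of 15.9%. Of 14 partners in tRNA charging, 3 were bound (21.4%, 95% exact binomial interval 4.66 to 50.8), and 1, 2 and 2 in replicates 1, 2 and 3. GatA, a subunit of the amidotransferase that makes mitochondrial glutaminyl-tRNA, had a signal of 260.7 and ranked 1173 and 995 in replicates 1 and 2, with no summit within 150 bp in replicate 3. SecS, which makes selenocysteinyl-tRNA, had 157.6, with no summit within 150 bp in replicate 1 and ranks 3945 and 3360 in replicates 2 and 3. The gene beta-PheRS, a subunit of the cytoplasmic phenylalanyl enzyme, had 128.6 at rank 3794, close to the end of the passing list, while alpha-PheRS and the scaffold genes AIMP1, AIMP2 and AIMP3 were not bound.

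Of 30 genes of tRNA maturation and modification, 8 were bound (26.7%, 12.3 to 45.9). Tcs5, a kinase gene of the complex that makes the threonylcarbamoyl modification of tRNA, had one of the strongest sites of the whole list, with a signal of 2238.2, rank 11 in the final list and ranks 9, 10 and 11 in the replicates. Its head-to-head neighbour is CHMP2B. Elp5 (signal 844.0), Elp6 (681.7) and Elp4 (257.7), subunit genes of Elongator, which modifies the wobble base, were also bound. Of 10 genes of the amino acid response, which senses uncharged tRNA and amino acid shortage, 3 were bound in the final list and in each replicate (30.0%, 6.67 to 65.2). They were Sesn (761.4), a stress-induced inhibitor of TOR signalling, REPTOR (461.3), a transcription factor that acts when TOR is low, and AsnS (345.1), asparagine synthetase. The intervals of the 3 lists all include the background.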

How the data were processed

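ChIP-seq regions of 3 biological replicates were taken from the lists deposited by the authors on dm6. Per the README deposited with them, a list of peaks and background was made for each replicate and for the pooled alignments, and the final list derives from these at an IDR threshold. Each replicate and pooled list also derives from a further file of unstated nature. The sources used here name no aligner, caller, version or threshold. The signal values are those deposited by the authors, with no stated normalisation, and were used as ranks within a list. The q-values are deposited by the authors as -log10 and were used at 0.05. The lists on dm3 were not used. Depth is unknown.

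Summits were assigned to TSSs of the Ensembl release 115 annotation in Python 3.11.15 with numpy 2.4.6, scipy 1.17.1 and pandas 2.3.3, and the assignment was tested on artificial positions. Sequence came from the RefSeq copy of dm6. Members and lists were chosen with earlier results of these data known. Of the 63 names in the 3 lists, 54 matched a gene. Every bound member is named, with the best-ranked unbound ones and up to 4 bound genes of each list. Sequences were shown for the strongest sites off arms not printed here and outside annotated genes, which left out SerRS. Alternatives changed the window, the gene assignment, the number of regions, the members and the replicates.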

Additional observations from a re-analysis of the deposited data

How the results depend on the processing

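As a mean over replicates, the cytoplasmic share exceeded the mitochondrial share under all 13 alternatives, by 12.2 to 32.2 percentage points. The cytoplasmic genes ranked better in 60 to 72.9% of pairs on average. In single replicates the difference ran from 5.56 points (replicate 1, nearest coding gene only) to 54.4 points (replicate 2, q under 0.05). With the nearest coding gene only, replicate 1 had 49.6% of pairs, and the exact permutation p was 0.5. It was 0.25 under the other alternatives with 3 replicates, the smallest these can give, and 0.5 with 2 replicates, so the tests say nothing about stability. Leaving out each replicate in turn gave differences of 23.9 to 32.2 points and 66.2 to 71.4% of pairs, and mean shares of 19.7 to 24.2% for all synthetase genes, 30.6 to 38.9% for cytoplasmic and 6.67% for mitochondrial genes.

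The shares themselves depended on several choices. The share of all coding genes moves with such choices too, and was 32.2% for any pooled region. For most of the settings below it is not given, and 15.9% is not their background. With the nearest coding gene only, 15.2% of all and 22.2% of cytoplasmic genes were bound, and the means over replicates were 11.1, 16.7 and 4.44% for all, cytoplasmic and mitochondrial genes, since sites between genes then count once. With the 1961 strongest regions of each list, 15.2% of all genes were bound, also as the mean over replicates, and 0% of mitochondrial genes. With a window of 1000 bp the mitochondrial share was 13.3% in the final list and as the mean. The whole replicate lists, background included, gave means of 45.5, 55.6 and 33.3% for all, cytoplasmic and mitochondrial genes. With q under 0.05 the mitochondrial mean was 8.89% and the cytoplasmic mean 40.7% ± 19.5 (SD, n = 3). The difference there was 31.9 points ± 22.8 (SD, n = 3). Sites in the best of both replicate 1 and replicate 2, chosen after the data were seen, gave 15.2% of all and 22.2% of cytoplasmic genes. All coding genes were at 13.0% there. With summits within 50 bp, 3 of the 7 sites were found in the whole lists of all 3 replicates, against 6 within 150 bp. No paired analysis of sample groups was possible because the samples form a single group, and the classes were compared within replicates. Depth is unknown and limits what a missing region shows.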

Other observations

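The tRNA genes that the synthetases serve lay apart from them. No synthetase gene was within 1000 bp of any of the 290 annotated tRNA genes, the nearest being 33916 bp away. Of these 290 tRNA genes, 6 had a passing summit within 500 bp, against 15.9% of all coding genes. They belonged to 6 amino acids, with 1 gene each for tyrosine (signal 845.8), glutamine (488.4), phenylalanine (267.9), histidine (204.8), valine (161.4) and leucine (158.2). None of the synthetase genes TyrRS, GlnRS, HisRS, ValRS and LeuRS was bound, nor were the mitochondrial genes of those amino acids, and for phenylalanine beta-PheRS was bound. Only 21.2% of all synthetase genes and 15.9% of all coding genes were bound, so that so few genes could all be unbound without any link to the tRNA genes. Whether a coding TSS lay nearer to the summits at the 6 tRNA genes was not examined, and no test was made.

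The site upstream of LeuRS-m, 872 bp from its TSS, had a signal of 608.0, stronger than any of the 7 sites within 500 bp of a synthetase TSS. It lay nearer to the TSS of Dhc64C than to that of LeuRS-m.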
